A study of Drosophila melanogaster with 2 samples.

Results

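The genes described here are 9 regulators of maternal and germline RNA, namely orb, nanos, osk, vas, pum, bru1, aub, piwi and tud. They were named with earlier results of these data known, and are 9 of the 13968 protein-coding genes on the main chromosome arms. Binding was measured for a GFP-tagged copy of cropped (crp), a basic helix-loop-helix leucine zipper factor related to vertebrate AP-4. Chromatin came from whole Drosophila melanogaster embryos of mixed sex, aged 0 to 16 hours, of a transgenic line that stably expresses crp with GFP at its C terminus, and an antibody against GFP was used for the immunoprecipitation. There is a single group, with biological replicates 1 and 3, and no untagged or mutant group to compare it with. All cells of the embryo were pooled, so a summit cannot be assigned to the germ cells. The members were chosen by the positions and signals of summits, so those values are given as a description, without tests.

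These genes act mainly on RNA that the mother loads into the egg. Oskar, Vasa and Tudor build the germ plasm at the posterior pole, Orb (a CPEB-type polyadenylation factor) and Bruno 1 control the translation of oskar mRNA, and Nanos and Pumilio repress target mRNAs at the posterior and in the germline. Aubergine and Piwi are Argonaute proteins that carry piRNAs against transposons. AP-4 type factors bind the palindromic E-box CAGCTG.

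At none of the reproducible peaks was a start of one of the 9 genes the nearest start. The authors deposited an optimal list of 1122 peaks that passed the irreproducible discovery rate (IDR) procedure, and weaker candidate lists for the pooled data and for each replicate. For 2 of the 9 genes, orb and nanos, an IDR summit lay within 1000 bp of a transcript start, against 11.1% of all protein-coding genes and 21.9% of those with a pooled candidate in that window. Another IDR summit lay inside vas, and one more lay 1945 bp upstream of piwi, outside the window. Each of these 4 summits was 26 to 112 bp upstream of a start of a neighbouring or nested gene, namely Cdc16 beside orb, CG11779 beside nanos, vig inside vas and TTLL4A beyond piwi.

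Genomic sequence at or near these summits, and at a weaker pooled summit inside bru1 that is described below, is shown for its E-box. Sequences are from RefSeq, in the dm6 build, on the plus strand, read 5′ to 3′, with CAGCTG in capitals. The lines for Cdc16 and TTLL4A end at the base before the neighbour's first transcribed base. Those for CG11779 and CG31759 are cut to 30 bases because the site is in a 5′ UTR. None of the lines for vig, CG11779 and CG31759 reaches the neighbour's start, and the CG11779 line does not hold its summit.

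orb and Cdc16, chr3R:23281115-23281200: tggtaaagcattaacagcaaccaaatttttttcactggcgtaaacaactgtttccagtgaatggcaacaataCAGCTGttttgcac

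piwi and TTLL4A, chr2L:10989315-10989400: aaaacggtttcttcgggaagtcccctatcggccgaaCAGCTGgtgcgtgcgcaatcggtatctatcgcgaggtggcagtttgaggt

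vas and vig, chr2L:15068140-15068240: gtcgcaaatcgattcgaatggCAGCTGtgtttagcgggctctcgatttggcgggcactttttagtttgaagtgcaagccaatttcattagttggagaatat

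nanos and CG11779, chr3R:19156770-19156799: gtatcaagcagtCAGCTGttctcttcgttc

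bru1 and CG31759, chr2L:12207718-12207747: ctctctcaagatCAGCTGtttctcaatgcc

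orb (FBgn0004882) occupies 23260610 to 23280856 on the minus strand of arm 3R and has 4 annotated starts. Its IDR summit, at 23281165, was intergenic, 309 bp upstream of the outermost orb start. It was only 36 bp upstream of Cdc16, which runs the other way on the plus strand and encodes a subunit of the anaphase-promoting complex. The starts of the divergent pair are 345 bp apart. The signal of the peak, an enrichment measure that the peak caller assigns, was 204.7 in the pooled list, 108.9 in replicate 1 and 96.0 in replicate 3, a mean of 102.5 ± 9.16 over the replicates (SD, n = 2). It ranked 145 of 1122, and the replicate summits lay 5 bp apart. The CAGCTG midpoint was 24.5 bp from the summit, on the Cdc16 side.

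The other orb candidates were weaker. A second pooled summit, 518 bp upstream of orb in a coding exon of Cdc16, had a signal of 24.6, with 24.6 in replicate 3 and no match of its own in replicate 1. A replicate candidate is called a match when it covers at least 50% of the shorter interval, and the replicate 1 candidate of the stronger summit (108.9) reached into this interval without meeting that rule. The 6 pooled summits in the orb body had signals from 19.1 to 27.7, and 1 of them, at 27.7, was matched in both replicates. Internal starts of orb had no pooled summit within the window, whereas replicate 1 listed 2 there (11.2 and 10.7) and replicate 3 listed 1 (11.7).

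nanos (FBgn0002962) has 1 start, at 19157238 on the plus strand of arm 3R, and ends at 19160202. Its IDR summit, at 19156838, was 400 bp upstream of that start and 26 bp upstream of a start of CG11779. This neighbour is on the opposite strand, spans 19154097 to 19159878 and so overlaps nanos. CG11779 has 3 annotated starts, and the summit also lay in the 5′ UTR of a longer transcript of CG11779. The signal was 173.8 in the pooled list, 117.3 in replicate 1 and 59.1 in replicate 3 (mean 88.2 ± 41.1, SD, n = 2), with rank 241 of 1122. The replicates thus differed more here than at orb.

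No CAGCTG lay within 50 bp of the nanos summit. The nearest copy, the site shown above, had its midpoint 53.5 bp from the summit and so fell just outside the window. A weaker pooled summit, 187 bp upstream of nanos and 34 bp upstream of another CG11779 start, had a signal of 23.2. The gene body held 2 pooled summits, at 25.6 and 27.9, with overlapping candidates of 22.2 and 18.4 in replicate 3 and none in replicate 1.

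vas (FBgn0283442), which encodes a DEAD-box RNA helicase, lies at 15061656 to 15074311 on the plus strand of arm 2L. The nested gene vig (vasa intronic gene) runs on the minus strand from 15070316 to 15062931. The IDR summit inside vas, at 15068190, was 6534 bp from the vas start and 112 bp upstream of a vig start, in introns of both. The vas body was thus 1 of 9 with an IDR summit, against 3.67% of all protein-coding genes. Those genes have a median length of 2164.5 bp, whereas vas has 12656 bp, and no share among genes of similar length was computed. The signal of this summit was 67.0 in the pooled list, 41.6 in replicate 1 and 24.1 in replicate 3 (mean 32.9 ± 12.4, SD, n = 2), with rank 1021 of 1122. This is close to the edge of the set, where the weakest IDR peak had 61.3 and the strongest candidate outside it 61.1. In replicate 3 alone it ranked 2435, so it was not among the 1122 strongest candidates there, and without replicate 1 no member had such a summit in its body.

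At the start of vas itself the pooled signal was 25.6, at a summit 376 bp downstream, in an intron. Replicate 3 had 15.8 there and replicate 1 no candidate. The start is shared with solo, a gene of meiotic sister-chromatid cohesion that begins at the same base, so the 2 genes cannot be told apart at this summit. The remaining vas summits in the pooled list had signals from 20.3 to 24.5.

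**Figure D1:**
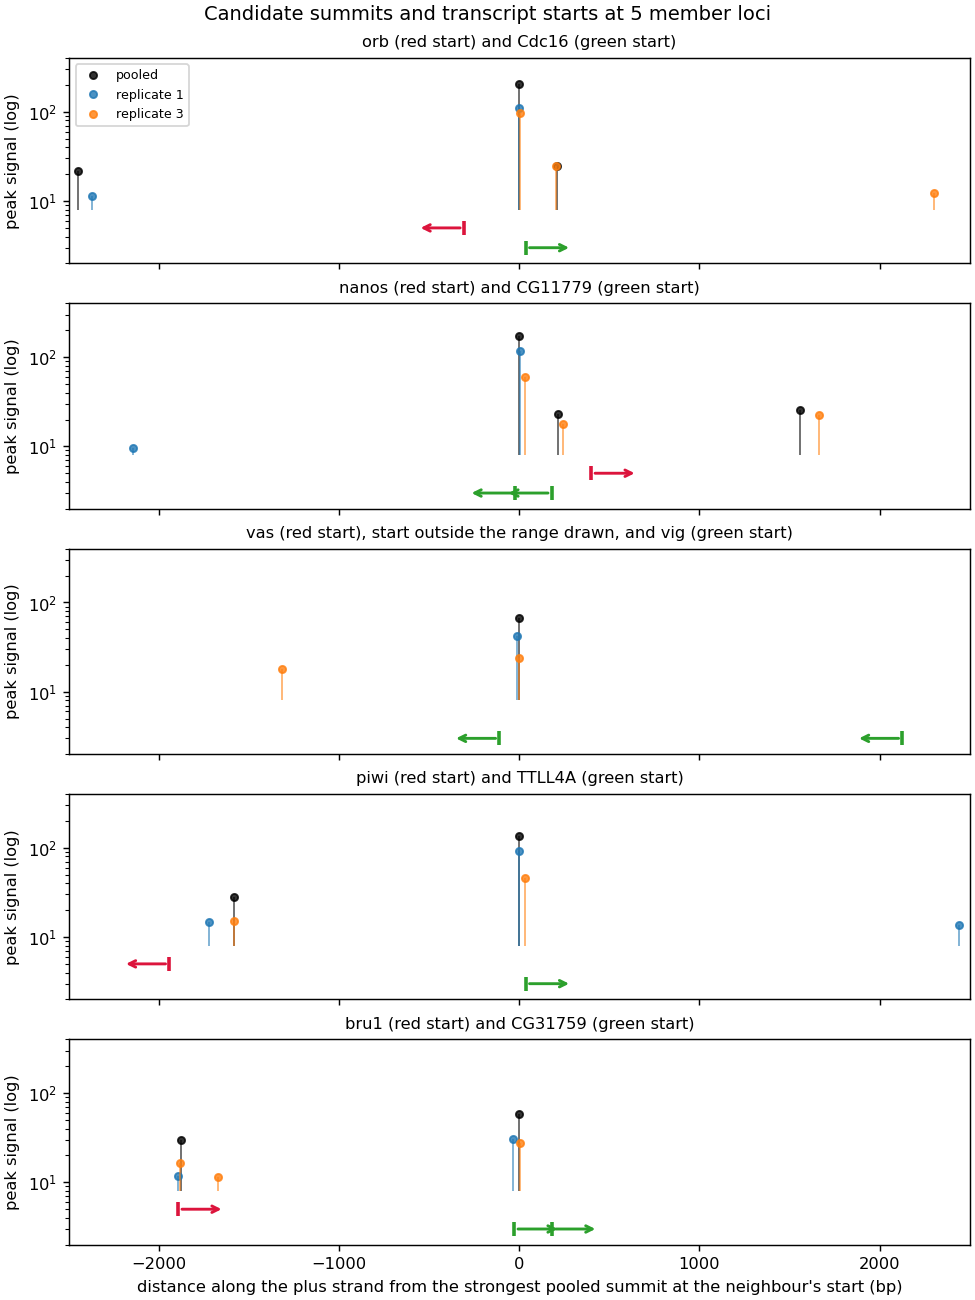
Signals (log axis) of pooled, replicate 1 and replicate 3 summits within 2500 bp of the strongest pooled summit at a neighbour's start, plotted by distance along the plus strand; bars with arrows mark starts and direction of transcription, red for the member and green for the neighbour. Each panel is centred on the summit at the neighbour's start, so its place beside the green start follows from the choice of loci. The vas start lies outside the range drawn.

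piwi and aub lie close together on the minus strand of arm 2L, with CG12253 and TTLL4A, a tubulin tyrosine ligase-like gene, between them on the plus strand. piwi (FBgn0004872) occupies 10982205 to 10987420. The IDR summit 36 bp upstream of TTLL4A had a signal of 134.5 in the pooled list, 91.7 in replicate 1 and 45.8 in replicate 3 (mean 68.8 ± 32.4, SD, n = 2). It had a CAGCTG with its midpoint 11.5 bp away. At 1945 bp from the piwi start it counted for piwi only with a 2000 bp window. Within 1000 bp of piwi the pooled list held a summit of 29.0, 875 bp downstream in an intron and beside an INE-1 transposon insertion, with 15.9 in replicate 3. A replicate 1 candidate of 14.3 overlapped it by less than the 50% needed for a match. A summit of 28.3 lay 361 bp upstream of piwi and 25 bp upstream of CG12253, which is divergent from piwi with 386 bp between the starts. Replicate 1 had 14.7 there and replicate 3 had 15.3.

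aub (FBgn0000146), at 10997819 to 11001476, had 1 pooled summit in its window and body. Its signal was 21.3, 427 bp downstream of the nearest aub start in an intron, with 10.5 in replicate 1 and 10.9 in replicate 3. These replicate signals are near the lowest values listed, 9.58 in replicate 1 and 10.9 in replicate 3. A stronger replicate 3 candidate, 17.0 at 694 bp downstream in a coding exon, overlapped the pooled summit's interval by less than the 50% needed for a match.

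bru1 (FBgn0000114), a translational repressor gene of 138435 bp with 6 starts at 12175004 to 12313438 on arm 2L, repeated the arrangement below the IDR set. Its strongest pooled summit, with a signal of 57.9, lay 28 bp downstream of the start of the nested gene CG31759 and 1894 bp from the nearest bru1 start. Replicate 1 had 30.8 and replicate 3 had 27.9 there (mean 29.4 ± 2.06, SD, n = 2), and a CAGCTG had its midpoint 4.5 bp from the summit. At an internal start of bru1 itself, a pooled summit 16 bp downstream had 29.5, with 11.9 in replicate 1 and 16.3 in replicate 3, and no CAGCTG within 50 bp. The 26 pooled summits in the bru1 body had a median signal of 25.01, and 8 were matched in both replicates.

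pum (FBgn0003165), whose protein binds target mRNAs with a PUF domain, spans 171340 bp at 9066343 to 9237682 on the minus strand of arm 3R. Its 3 pooled summits within 1000 bp of a start had signals of 23.1, 26.5 and 29.2, all at an internal start. Replicate 3 had 12.5, 22.4 and 21.0 at these summits, and replicate 1 listed no candidate within 1000 bp of any pum start. The summit of 29.2 had CAGCTG near it, shown here as the single pooled promoter summit with the site for which the member's own start was the nearest:

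pum, chr3R:9227366-9227466: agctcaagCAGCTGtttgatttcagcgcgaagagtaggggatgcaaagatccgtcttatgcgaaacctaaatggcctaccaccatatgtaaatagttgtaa

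The strongest pum candidate was intronic, 26471 bp from the nearest pum start, with a signal of 55.3 in the pooled list, 20.6 in replicate 1 and 32.9 in replicate 3 (mean 26.7 ± 8.65, SD, n = 2). It had no CAGCTG within 50 bp. With rank 1252 in the pooled list it was outside the IDR set, and it ranked 2521 in replicate 1 and 1156 in replicate 3.

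osk (FBgn0003015), at 8935126 to 8938395 on the plus strand of arm 3R, had no pooled summit in its window or its body. Replicate 1 listed 11.8 at 212 bp upstream of the start and 9.67 at 873 bp downstream, and replicate 3 listed 11.2 at 420 bp upstream and 10.9 at 2804 bp downstream. The replicate 3 summit 420 bp upstream had a CAGCTG with its midpoint 9.5 bp away, and osk was the nearest start. No candidates of the replicates matched at this gene. The nearest pooled summit, 1286 bp upstream, had 24.6, with 14.9 in replicate 1 and no overlapping candidate in replicate 3. The lists hold only candidates above a minimum, so weaker binding was not detectable.

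tud (FBgn0003891), at 21183322 to 21192913 on arm 2R, had no pooled summit near its start. Replicate 3 listed 15.5 at 388 bp downstream, and replicate 1 listed nothing in the window. Its 2 pooled body summits had 19.5 in a coding exon and 20.0 in the 3′ UTR, and neither was matched in both replicates.

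**Figure D2:**
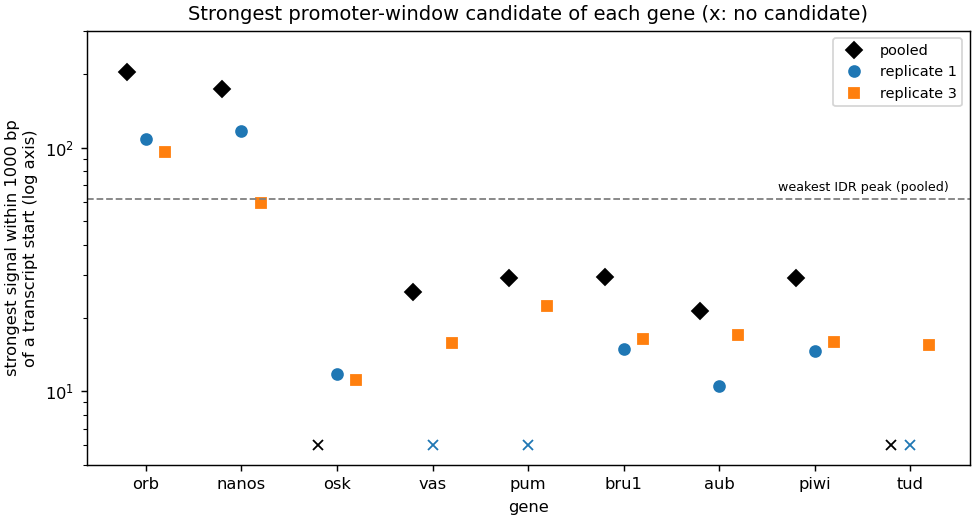
Strongest signal (log axis) within 1000 bp of a start of each gene in the pooled list and in replicates 1 and 3, with crosses where the list holds no candidate and a dashed line at the weakest IDR peak, 61.3. Only orb and nanos stand above the line in the pooled list, and their replicate signals exceed those of the other 7 genes.

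Set side by side, the promoter windows fall into separate ranges. A pooled summit was present for 7 of the 9 genes, against 50.7% of all protein-coding genes, and the strongest signals were 204.7 for orb, 173.8 for nanos, 29.5 for bru1, 29.2 for pum, 29.0 for piwi, 25.6 for vas and 21.3 for aub. Any annotated start counted. With only the 5′-most start of each gene 5 members had one, as the bru1 and pum summits lay at internal starts. The share of all genes was not computed for that start. Among the 7075 genes with such a summit the median was 28.4, with the middle part of the distribution from 22.6 to 51.3, and the 7 members had a median of 29.2. The orb value was at or above 96.6% of these genes and the nanos value 94.3%, whereas bru1 (53.3%), pum (52.4%) and piwi (52.1%) lay near the middle, vas at 38.9% and aub at 18.7%. The values of bru1, pum and piwi differ by less than the replicates do at bru1 (11.9 and 16.3). Signals were not scaled between lists, so the latter difference is no measure of error for the pooled values. For 4 of the 7 genes, orb, nanos, bru1 and aub, the strongest summit was matched by candidates of both replicates, against 51.4% of genes with a pooled summit.

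**Figure D3:**
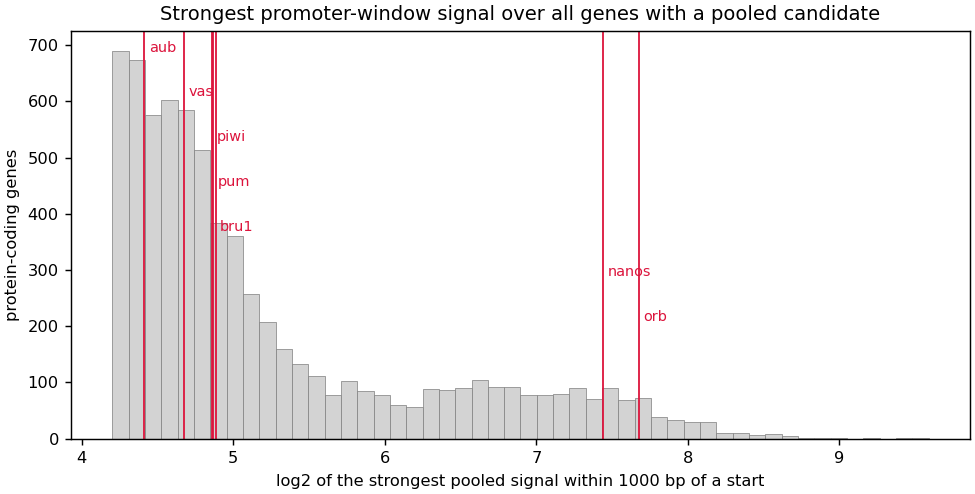
Number of protein-coding genes by the log2 of their strongest pooled signal within 1000 bp of a start, with red lines at the 7 members that have one. orb and nanos lie in the upper shoulder, and the other 5 lie in the main mass around the median.

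Sharing a summit with a nearer gene is common in these data. Of the 1550 genes with an IDR summit within 1000 bp, the strongest summit was within 1000 bp of another protein-coding gene's start in 1181, and the gene's own start was the nearest in 61.9%. For orb and nanos it was not, so 0 of 2 members had their own start nearest, a count too small to set against that share. Where another start was nearer, the median distance to the gene's own start was 209 bp, against 48 bp where the own start was nearest. With 309 and 400 bp, orb and nanos were farther from their summits than the first of these medians.

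CAGCTG was within 50 bp of the strongest pooled promoter summit in 2 of 7 members, orb and pum, against 17.0% of genes with such a summit. At IDR summits it was present in 51.1% of genes with one in the promoter window, and here in orb but not in nanos. Over the 114 pooled summits in the windows and bodies of the 9 genes it was present in 8 (7.02%), against 6.44% of all 26505 pooled summits. The midpoint lay 24.5, 26.5 and 11.5 bp from the IDR summits beside Cdc16, vig and TTLL4A. The call for orb and pum rests on the width of the window: within 25 bp of the summit neither had a whole copy. With the summits of replicate 1 alone, leaving out replicate 3, 1 member had it.

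Candidates inside the genes followed gene length. A pooled summit lay in the body of 8 of 9 members, against 43.8% of all protein-coding genes, whose median length is 2164.5 bp, while the members ran from 2965 bp for nanos to 171340 bp for pum. Of the 114 pooled summits in windows and bodies together, 93 (81.6%) were in introns, 8 in 3′ UTRs, 6 in 5′ UTRs, 5 in coding exons and 2 intergenic. Features of any protein-coding gene counted, so some of these exons and UTRs belong to neighbouring or nested genes such as Cdc16, CG11779 and vig. The same shares over all pooled summits were not computed. pum held 63 body summits, more than 98.3% of the 116 genes of 0.5 to 2 times its length, whose median was 18. bru1 held 26, more than 71.7% of 173 such genes (median 16). Of the pum summits 15 (23.8%) were matched in both replicates, against 31.9% of all pooled candidates. Per kb of gene, nanos had 0.675 summits, piwi 0.575, vas 0.474, pum 0.368, orb 0.296, aub 0.273, tud 0.209, bru1 0.188 and osk 0.

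**Figure D4:**
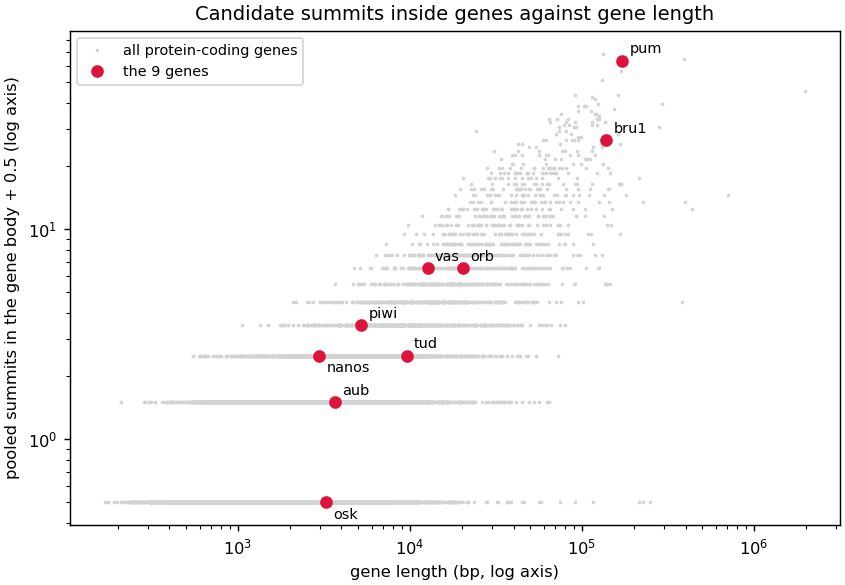
Pooled summits in the gene body plus 0.5 (log axis) against gene length (log axis), for the 9 genes in red and all protein-coding genes in grey. The counts rise with length in both, with pum at the upper edge of the cloud and osk at 0 summits.

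The replicates were unequal at 3 of the 4 IDR summits. The log2 ratio of replicate 3 to replicate 1 signal was -0.18 beside orb, -0.99 beside nanos, -0.79 inside vas and -1.001 beyond piwi. Over 1048 IDR promoter peaks with a candidate in both replicates the median was -0.19 and the SD 0.55, and 5.63% of them had a lower ratio than the nanos peak. Signals were not scaled between lists, so the ratios describe the lists and not a change in binding. By the Euclidean distance of log2 signals over the pooled and both replicate lists, the peaks most like that of orb were those nearest to Mnat9, CG9643 and CG2224 (distances 0.04 to 0.06), and those most like that of nanos were nearest to Tm1, CG2004 and UGP (0.04 to 0.12).

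A wider set of 119 genes of the same pathways was counted in the same way. Of these, 10 had an IDR summit in the promoter window (8.403%, against 11.1% of all protein-coding genes). A pooled summit lay in that window for 73 of the 119, against 50.7% of all protein-coding genes. The median strongest pooled signal of the 73 was 30.1, against 28.4 over all genes with one. The gene's own start was the nearest to the strongest IDR summit in 3 of the 10, against 61.9% over all such genes.

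These included orb2, the other CPEB gene of the fly, with a signal of 81.2 in the pooled list, 34.0 in replicate 1 and 50.9 in replicate 3. They also included Hsp26, a small heat shock gene expressed in the ovary, with 66.3 in the pooled list, 18.8 in replicate 1 and 33.7 in replicate 3. The orb2 summit lay 19 bp upstream of its start and had CAGCTG within 50 bp, whereas the Hsp26 summit had none. The summits of orb and orb2 thus differ in position: that of orb is nearer to Cdc16, that of orb2 to orb2 itself.

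At its strongest IDR summit, each of the other 7 had a nearer neighbour, as orb and nanos did. Of the localisation partners, 2 of 28 had an IDR summit, the dynein heavy chain gene Dhc64C (signal 239.4, nearer to LeuRS-m) and exu, needed to localise bicoid mRNA (108.9, nearer to galla-1). Of 32 piRNA pathway genes, 2 did, cuff, which acts at piRNA clusters (157.9, nearer to CG13185), and Panx, which acts with nuclear Piwi in silencing (96.0, nearer to CG9485). In the list for decay of maternal mRNA 2 of 15 did, the deadenylase gene Pop2 (182.5, nearer to CG6928) and the exonuclease gene pcm (116.3, nearer to ND-18). The microRNA Argonaute gene AGO1 had 116.1, nearer to CG33155, and is 1 of 18 germline stem cell and oogenesis regulators, where orb2 is the second with a summit, and 1 of 8 relatives of the members. Of the 13 germ plasm and pole cell genes 2 had an IDR summit, among them Hsp26. None of the 7 maternal patterning mRNA genes had one. Of the 7 genes with a nearer neighbour, exu had CAGCTG within 50 bp of its summit. Dhc64C, cuff, Panx, Pop2, pcm and AGO1 did not, and the share over all genes with an IDR promoter summit was 51.1%.

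Outside the IDR set, the strongest pooled signals per list were 55.9 for btz and 37.9 for brat among localisation partners. In the piRNA list they were 59.2 for Hsp83, at a summit nearer to CG14965, and 47.5 for Tudor-SN, at one nearer to mRpL17. Among germ plasm and pole cell genes the signal was 46.7, at a summit shared by wun and wun2 and nearer to wun2. It was 44.4 for Sxl and 40.0 for Lis-1 among oogenesis regulators, and 52.8 for PAN3 and 44.8 for DCP2 in the decay list. The patterning genes bcd and grk had 32.3 and 19.1. The summits of brat and bcd had no match in replicate 1, and those of Sxl and grk had none in replicate 3. At PAN3 replicate 1 had 12.2 and replicate 3 had 42.1, and at DCP2 they had 12.6 and 34.3. Among the relatives, the Bruno family genes bru2 and bru3 had 54.2 and 37.9, each at its own start, which lay 220 and 80 bp downstream of the summit. For bru2 replicate 1 had 14.0 and replicate 3 had 36.9. For bru3 they had 20.7 and 17.3, so bru2 had the higher signal in replicate 3 and the lower one in replicate 1.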

How the data were processed

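Chromatin immunoprecipitation with sequencing was deposited as 8 narrowPeak lists, of which the 4 in dm6 were used. Per the labels, chromatin was sonicated to 200 to 800 bp. Per the deposited readme, candidate lists were made from the alignments and 1 control alignment shared by both replicates, and the optimal list came from the IDR procedure. Which aligner and peak caller were run, and at which IDR threshold, is not stated by the labels or the readme. The authors deposited a signal value per peak (column 7), and summits were placed by column 10. Signal is a score of the caller, not scaled between lists. The lists hold no read counts, so depth is unknown. The dm3 lists were not analysed here.

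Genes and starts came from the Ensembl release 115 annotation, in dm6 coordinates, and every peak lay within its arm of the RefSeq sequence. nanos is the annotation's symbol for nos. A summit within 1000 bp of any start of a gene counted for it, and a replicate candidate matched a pooled one when it covered at least 50% of the shorter interval, the strongest being taken. CAGCTG, which equals its reverse complement, had to lie whole in the 101 bp centred on a summit. Distances are negative upstream, and ranks run from the strongest. Named were all 9 members, genes sharing a summit, listed genes with an IDR summit (1 is not reported here), the 2 strongest others of each of 7 lists, and the 3 peaks most like each member's. The members and lists were chosen with earlier results of these data known. No statistical test was made. Assignment was tested on simulated data with planted summits. Alternatives were other windows, starts, overlaps, peak sets and motif widths, and single replicates. Python 3.11.15, NumPy 2.4.6, pandas 2.3.3 and matplotlib 3.10.9 were used.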

Additional observations from a re-analysis of the deposited data

How the results depend on the processing

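Most counts stayed within 1.5 times their value: 33 of 41 alternatives did and 8 did not. Assigning each summit only to the gene with the nearest start, an alternative added after the data were seen, left 0 members and 4 of the 119 pathway genes with an IDR summit. This count takes any IDR summit of a gene, whereas the 3 of 10 with their own start nearest were scored at the strongest summit. Leaving out summits near another gene's start, also added later, left 0 members with an IDR summit in the body. The 561 IDR peaks of higher signal left 6 pathway genes and 0 members by body, being fewer peaks. In a motif window of 51 bp 0 members had CAGCTG. Leaving out each replicate in turn gave 2 members with a promoter summit among the 1122 strongest, 0 to 1 by body, 10 to 15 pathway genes, 6 to 9 members with a candidate near a start, 8 to 9 with one in the body, and 1 to 2 with CAGCTG. No paired analysis was possible because there is a single group. Depth is unknown, and each value rests on 2 replicates that share 1 control.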
